A study of Mus musculus with 6 samples.

Results

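The collagen and laminin genes described here are the protein-coding genes for collagen chains, laminin alpha, beta and gamma chains, the nidogens, perlecan (Hspg2), agrin (Agrn) and fibronectin (Fn1). They were chosen by gene symbol and biotype, a rule that uses no measured value, though earlier results of these data were known. They number 60 of the 55802 genes in the tables, with 44 collagen chains, 11 laminin chains and 5 linkers and glycoproteins. Libraries were made from primary neural stem cells isolated from the subventricular zone, the neurogenic wall of the lateral ventricle, of adult wild-type C57BL/6 mice and kept in Neurobasal-type medium with B27. Cultures were infected for 24 h with ADV-SETD4-GFP, which carries the SET domain methyltransferase SETD4 (SETD4 OE, n = 3), or with ADV-GFP, which carries the fluorescent protein without SETD4 (control, n = 3), so infection and GFP are common to both groups. The labels name no sort for infected cells and do not say whether replicates came from separate cultures or animals, so p-values measure the spread between these libraries, which may be technical. In RNA of whole cultures, fewer cells of a type and less RNA per cell cannot be told apart.

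Collagens and laminins are secreted as trimers of chains that are assembled in the endoplasmic reticulum. Laminin trimers join an alpha, a beta and a gamma chain, polymerise on the cell surface and are tied to the type IV collagen network by nidogens and perlecan to form the basement membrane. In the subventricular zone, neural stem cells touch a laminin-rich vascular basement membrane and branched extravascular deposits called fractones, and they bind them through integrins and other receptors. Fibrillar collagens form the fibres of connective tissue, and FACIT collagens, which have interrupted triple helices, attach to the surface of such fibres.

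Values are FPKM, reads per kilobase of gene length scaled by the authors' library size, which allow levels of different genes to be compared per length. Genes that averaged 1 FPKM or more across the libraries were tested with limma on log2(FPKM + 1), and a gene is called when its p-value, adjusted by the Benjamini-Hochberg method over all 12994 tested genes, is under 0.05. All fold changes on the log2 scale below are of that transformed value, SETD4 OE over control, and the added 1 makes them smaller than the ratio of means for members of a few FPKM or less. Libraries held 14924273 to 18078717 recovered reads, which exceeded the size behind the deposited FPKM by 0.634% to 2.75% in the controls and fell short of it by 3.69% to 5.04% in SETD4 OE. Setd4 itself was at 0.952, 0.972 and 1.53 FPKM in the controls and at 295.5, 346 and 333 FPKM in SETD4 OE. Mitochondrially encoded genes took 3.78% of the reads in control replicate 1, 2.45% in each of the other controls and 3.52% to 3.73% in SETD4 OE. Values without control replicate 1, the outlying control in this share, are given below where they change the call of a tested gene that is named.

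Of the 60 members, 29 passed the filter, and their calls went in both directions, often within a pair of related chains. In SETD4 OE 13 were called higher, 10 lower and 6 were not called. Among all tested genes 26.0% were called higher, 33.9% lower and 60.0% in either direction, so a call by itself is common in this comparison, and the members are read here by which chain moved and how far. The 3 SETD4 OE values lay wholly above or below the 3 control values for 24 of the 29, against 66.0% of all tested genes. The median log2 fold change was 0.13 over the 29 and -0.06 over all tested genes. Col1a1 and Lama2 passed the filter only through their SETD4 OE values, so their rise was partly fixed by the filter. The lowest library value of a tested member rested on 66 reads and the highest on 6126.

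**Figure D1:**
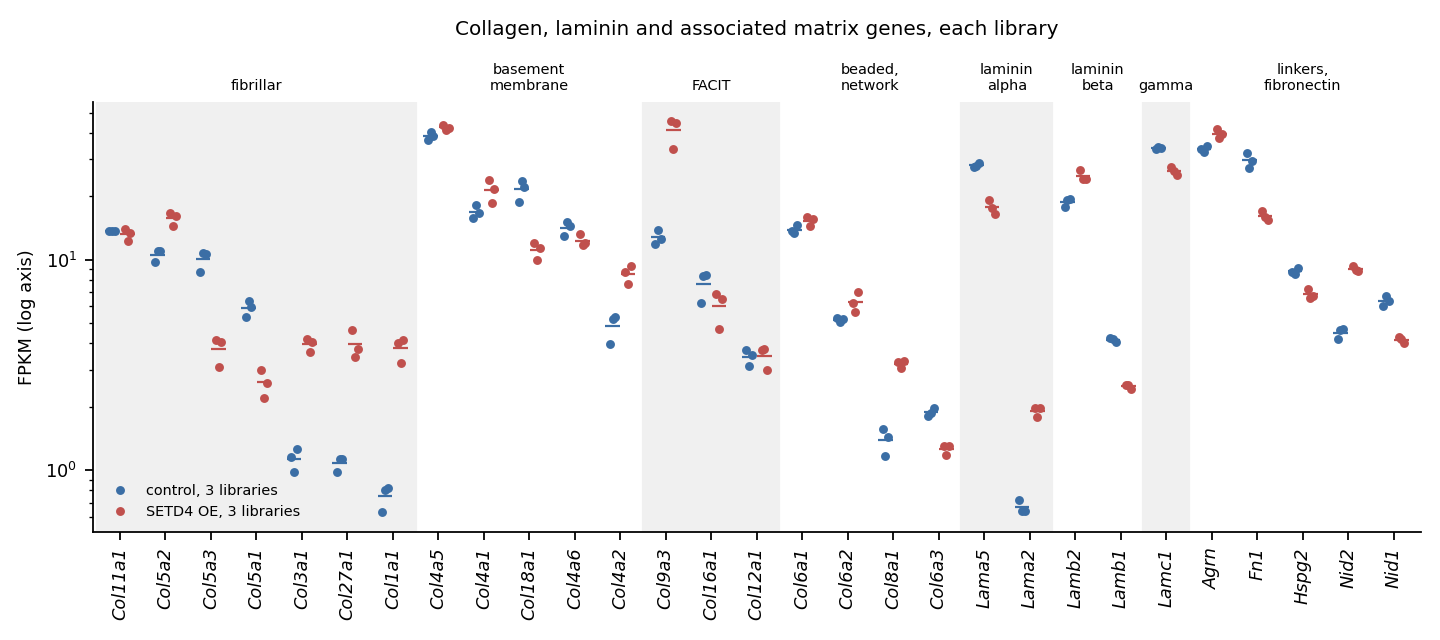
FPKM (log axis) of each tested member in each of the 6 libraries, grouped by class, with the group mean as a bar (blue, control; red, SETD4 OE; replicates 1 to 3 from left). Groups are far apart for Col9a3, Col3a1, Col27a1, Col1a1, Nid2 and Lama2 (SETD4 OE above) and for Col5a3, Col5a1 and Fn1 (SETD4 OE below), while Col11a1 and Col12a1 overlap.

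Among laminins, the main alpha, the minor beta and the main gamma chain fell and another alpha and the main beta chain rose. Lama5 (ENSMUSG00000015647; mm39 chromosome 2, 179818166 to 179867652) encodes the alpha5 chain of laminins on which stem cells are often grown. It stood at 27.6, 27.7 and 29.0 FPKM in the controls and at 19.3, 17.5 and 16.5 FPKM in SETD4 OE, with no overlap. Its log2 fold change was -0.63 (SE 0.07, adjusted p = 1.886e-04). Lama2 (ENSMUSG00000019899; mm39 chromosome 10, 26856032 to 27495754) encodes the alpha2 chain of merosin, the laminin of muscle and peripheral nerve. It was at 0.718, 0.637 and 0.636 FPKM in the controls and at 1.97, 1.78 and 1.98 FPKM in SETD4 OE, a level still far under that of Lama5. Its log2 fold change was 0.81 (SE 0.09, adjusted p = 2.644e-04), or 1.40 with a pseudocount of 0.1 and 1.61 with limma-voom on the reads. The ratio of Lama2 to Lama5 went from 0.0237 ± 0.00212 to 0.108 ± 0.0104 (mean ± SD, n = 3).

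The beta chains moved apart. Lamb2 (ENSMUSG00000052911; mm39 chromosome 9, 108356935 to 108367729), the beta2 chain found at synapses, in the kidney filter and in mature vessels, was the more abundant in both groups. It had 17.9, 19.2 and 19.4 FPKM in the controls and 26.6, 24.2 and 24.2 FPKM in SETD4 OE (log2 fold change 0.39, SE 0.06, adjusted p = 0.00146). Lamb1 (ENSMUSG00000002900; mm39 chromosome 12, 31315233 to 31379643), the beta1 chain of most embryonic laminins, had 4.22, 4.20 and 4.04 FPKM in the controls and 2.54, 2.52 and 2.42 FPKM in SETD4 OE (log2 fold change -0.56, SE 0.06, adjusted p = 2.297e-04). Both genes separated the groups completely, in opposite directions, so that Lamb2 exceeded Lamb1 by 4.54 ± 0.291 times in the controls and 10.0 ± 0.441 times in SETD4 OE. The exact two-sided permutation test of this ratio gave p = 0.1, the smallest p that 3 libraries against 3 allow, as it did for each of the 9 chain ratios computed. Most of the 9, among them Lama2 to Lama5, Nid2 to Nid1 and Col5a2 to Col5a1, were picked after values were seen. Their p-values are therefore no independent support. Lamc1, the gamma1 chain that nearly all laminins share, had 33.6, 34.2 and 33.9 FPKM in the controls and 27.7, 26.4 and 25.3 FPKM in SETD4 OE (log2 fold change -0.35, SE 0.05, adjusted p = 0.00114). Every SETD4 OE library was below every control, and Lamc1 was among the more abundant members per length in both groups.

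The nidogens, which bridge laminin and type IV collagen, changed places. Nid1 (ENSMUSG00000005397; mm39 chromosome 13, 13612136 to 13686854) had 6.00, 6.75 and 6.39 FPKM in the controls and 4.28, 4.18 and 4.04 FPKM in SETD4 OE. Nid2 (ENSMUSG00000021806; mm39 chromosome 14, 19801333 to 19861855) had 4.19, 4.63 and 4.69 FPKM in the controls and 9.30, 8.92 and 8.82 FPKM in SETD4 OE. Nid1 was the higher nidogen in all 3 control libraries and Nid2 in all 3 SETD4 OE libraries. The log2 fold changes were -0.51 for Nid1 (SE 0.06, adjusted p = 3.769e-04) and 0.87 for Nid2 (SE 0.06, adjusted p = 2.911e-05), and the ratio of Nid2 to Nid1 went from 0.706 ± 0.0249 to 2.16 ± 0.0269. Nid2 overlaps Rtraf on the opposite strand, an RNA transport factor subunit that itself fell from 62.0 ± 4.64 to 42.0 ± 4.34 FPKM (adjusted p = 0.00171). The strand setting of the counting is not given in the sources used here, so reads of overlapping genes may be shared.

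**Figure D2:**
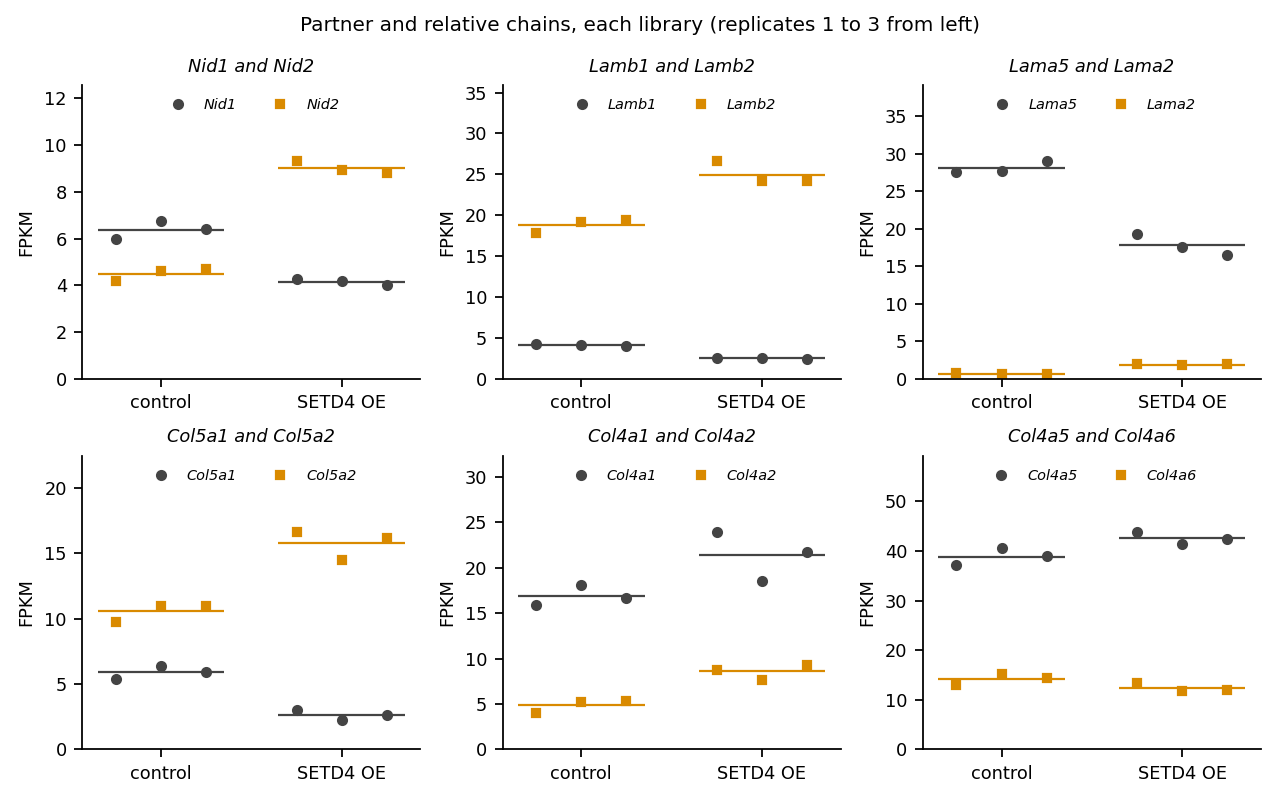
FPKM of 6 pairs of related chains in each library, with the group mean as a line (circles, the first-named gene; squares, the second; replicates 1 to 3 from left in each group; axes start at 0). Nid2 passes Nid1 in SETD4 OE, Lamb2 and Col5a2 move away from Lamb1 and Col5a1, Lama2 stays far under Lama5, and Col4a1 and Col4a2 go up together.

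Fibronectin and the proteoglycans also parted. Fn1 (ENSMUSG00000026193; mm39 chromosome 1, 71624679 to 71692359), which encodes the soluble and fibrillar glycoprotein bound by the integrin alpha5 beta1, had 32.1, 27.4 and 29.6 FPKM in the controls and 17.0, 15.9 and 15.4 FPKM in SETD4 OE. The lowest control was 27.4 FPKM and the highest SETD4 OE library 17.0 FPKM (log2 fold change -0.84, SE 0.07, adjusted p = 7.298e-05). Hspg2, which encodes perlecan, the heparan sulfate proteoglycan of basement membranes, had 8.75, 8.58 and 9.16 FPKM in the controls and 7.22, 6.56 and 6.71 FPKM in SETD4 OE (log2 fold change -0.33, SE 0.06, adjusted p = 0.00241). Agrn, which encodes agrin, the proteoglycan that clusters acetylcholine receptors and binds laminin and dystroglycan, went the other way. It had 33.5, 32.6 and 34.6 FPKM in the controls and 41.8, 38.0 and 39.6 FPKM in SETD4 OE (log2 fold change 0.24, SE 0.06, adjusted p = 0.00928). Fn1 was called lower in each of the 15 alternative analyses, with a log2 fold change of -0.90 to -0.69.

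In the type IV collagens, the broadly used alpha1 and alpha2 chains were called higher and the alpha5 and alpha6 chains were not called. Col4a1 and Col4a2 lie head to head on chromosome 8 and overlap by 22 bases at their starts in mm39, and their products assemble into the common type IV trimer. Col4a2 had 3.96, 5.23 and 5.32 FPKM in the controls and 8.74, 7.68 and 9.30 FPKM in SETD4 OE (log2 fold change 0.72, SE 0.11, adjusted p = 0.00129). Col4a1 had 15.9, 18.2 and 16.7 FPKM in the controls and 24.0, 18.6 and 21.8 FPKM in SETD4 OE, so that SETD4 OE replicate 2 lay just above the highest control. Its log2 fold change was 0.32 (SE 0.10, adjusted p = 0.0257), and this call was lost in 6 of the 15 alternatives, with adjusted p = 0.0650 without control replicate 1, 0.0714 without control replicate 3, 0.0797 without SETD4 OE replicate 1 and 0.0700 without SETD4 OE replicate 3. The level of Col4a1 over Col4a2 was lower in every SETD4 OE library than in any control, at 3.54 ± 0.435 and 2.50 ± 0.214.

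Col4a5, the X-linked alpha5 chain, was the most abundant type IV chain per length in all 6 libraries, with 37.1, 40.6 and 38.9 FPKM in the controls and 43.9, 41.4 and 42.5 FPKM in SETD4 OE. The groups did not overlap, but the log2 fold change of 0.13 missed the threshold (SE 0.06, adjusted p = 0.0867), and it passed under each of the 5 other scalings of the libraries. Col4a6, its head-to-head neighbour 1308 bases away, had 13.0, 15.2 and 14.5 FPKM in the controls and 13.3, 11.7 and 11.9 FPKM in SETD4 OE (log2 fold change -0.19, SE 0.08, adjusted p = 0.0684), and it was called lower without control replicate 1 and without SETD4 OE replicate 1. Col4a3 and Col4a4, the partners of alpha5 in the kidney and inner ear trimer, lay under the filter at 0.0407 and 0.0902 FPKM in the controls and 0.141 and 0.200 FPKM in SETD4 OE. Col18a1, a multiplexin of basement membranes from which endostatin is cut, was the member of this class that fell. It had 18.8, 23.8 and 22.3 FPKM in the controls and 11.9, 9.94 and 11.4 FPKM in SETD4 OE (log2 fold change -0.90, SE 0.10, adjusted p = 2.745e-04). Slc19a1, a folate carrier gene that overlaps Col18a1, fell from 5.28 ± 0.316 to 4.08 ± 0.514 FPKM (adjusted p = 0.0189).

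Of 11 fibrillar collagen chains 7 were tested, and the type V chains moved against each other. Col5a2 (ENSMUSG00000026042; mm39 chromosome 1, 45413481 to 45542442) had 9.76, 11.0 and 11.0 FPKM in the controls and 16.7, 14.5 and 16.2 FPKM in SETD4 OE (log2 fold change 0.53, SE 0.07, adjusted p = 7.260e-04). Col5a1, which encodes the alpha1(V) chain that pairs with alpha2(V) in the main type V trimer, had 5.35, 6.39 and 5.96 FPKM in the controls and 3.00, 2.21 and 2.60 FPKM in SETD4 OE (log2 fold change -0.94, SE 0.10, adjusted p = 2.077e-04). Col5a3 (ENSMUSG00000004098; mm39 chromosome 9, 20681346 to 20726363), the alpha3(V) chain, had 8.77, 10.7 and 10.7 FPKM in the controls and 4.15, 3.08 and 4.06 FPKM in SETD4 OE (log2 fold change -1.22, SE 0.12, adjusted p = 1.142e-04). The alpha2(V) chain was thus alone among the type V genes in being higher in SETD4 OE, and the ratio of Col5a2 to Col5a1 went from 1.80 ± 0.0669 to 6.11 ± 0.515 with no overlap of libraries.

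Col3a1, Col1a1 and Col27a1, all low in the controls, rose. Col3a1, the type III chain, had 1.15, 0.973 and 1.26 FPKM in the controls and 4.20, 3.63 and 4.05 FPKM in SETD4 OE (log2 fold change 1.22, SE 0.09, adjusted p = 3.349e-05). Col1a1, the alpha1 chain of type I collagen, had 0.628, 0.805 and 0.824 FPKM in the controls and 4.02, 3.24 and 4.15 FPKM in SETD4 OE (log2 fold change 1.45, SE 0.11, adjusted p = 3.410e-05). Col27a1, a short fibrillar collagen of cartilage, had 0.978, 1.12 and 1.13 FPKM in the controls and 4.65, 3.43 and 3.77 FPKM in SETD4 OE (log2 fold change 1.25, SE 0.11, adjusted p = 7.024e-05). For each of these 3 genes the lowest SETD4 OE library was above the highest control, by mean ratios of 3.51, 5.05 and 3.68, although the levels stayed under 5 FPKM. With a pseudocount of 0.1 their log2 fold changes were 1.73, 2.19 and 1.78, and with limma-voom 1.90, 2.41 and 1.95. Col1a2, which supplies the other chain of the type I trimer, lay under the filter and rested on 310 reads in the controls and 845 in SETD4 OE, at 0.503 ± 0.0485 and 1.42 ± 0.0993 FPKM. Col11a1, the most abundant fibrillar chain in the controls, had 13.7, 13.6 and 13.7 FPKM there and 14.1, 12.3 and 13.3 FPKM in SETD4 OE, which overlap (log2 fold change -0.05, SE 0.06, adjusted p = 0.536). The sign of its difference turned under each of the 5 other scalings. Col3a1 and Col5a2 lie tail to tail 24614 bases apart on chromosome 1 with no protein-coding gene between them, and both were called higher.

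Col9a3 had the largest log2 fold change of the 29 tested members with the pseudocount of 1, while Col1a1, Col27a1 and Col3a1 had larger mean ratios and came before it with a pseudocount of 0.1 and with limma-voom. It encodes the alpha3 chain of type IX collagen, a FACIT collagen of cartilage fibrils and of the eye (ENSMUSG00000027570; mm39 chromosome 2, 180239583 to 180263982). It had 11.9, 13.9 and 12.5 FPKM in the controls and 45.4, 33.6 and 44.8 FPKM in SETD4 OE, a mean ratio of 3.24 (log2 fold change 1.61, SE 0.12, adjusted p = 4.217e-05). Every SETD4 OE library was above every control, with replicate 2 the lowest of its group. Its partner chains were far lower per length, Col9a1 at 0.413 ± 0.0570 and 0.731 ± 0.220 FPKM and Col9a2 at 0.165 ± 0.128 and 0.834 ± 0.159 FPKM in the controls and SETD4 OE, both under the filter. Tcfl5, a transcription factor gene overlapping Col9a3, was at 1.19 ± 0.214 and 1.32 ± 0.104 FPKM. The other tested FACIT chains were not called. Col12a1 had 3.71, 3.13 and 3.51 FPKM in the controls and 3.71, 3.77 and 3.00 FPKM in SETD4 OE (log2 fold change 0.01, SE 0.09, adjusted p = 0.919), a difference near 0 whose sign turned under quantile scaling. Col16a1 had 6.22, 8.36 and 8.41 FPKM in the controls and 6.90, 4.67 and 6.53 FPKM in SETD4 OE (log2 fold change -0.31, SE 0.15, adjusted p = 0.127), and without control replicate 1 it was called lower (log2 fold change -0.43, adjusted p = 0.0389).

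**Figure D3:**
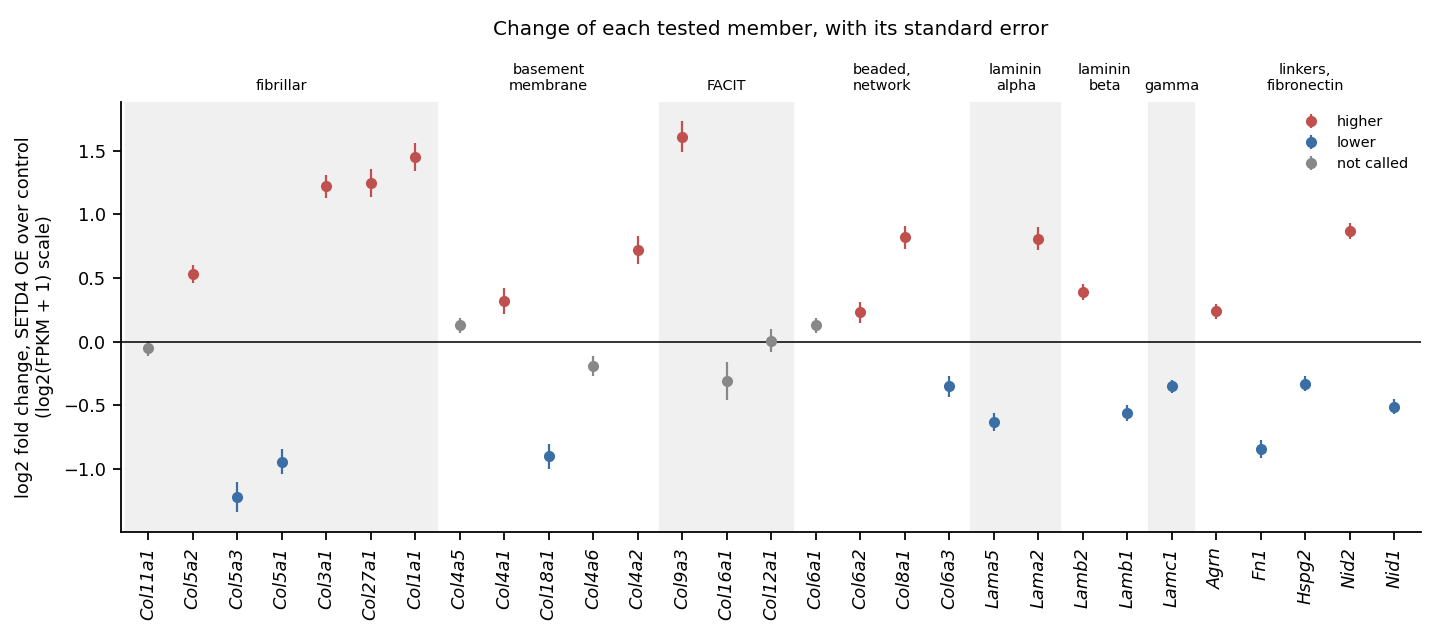
Log2 fold change of each tested member (SETD4 OE over control, log2(FPKM + 1) scale, bars are 1 standard error from limma, n = 3 per group), grouped by class as in the plot of levels. Red points were called higher, blue lower and grey were not called; every class with more than 1 called member holds calls in both directions.

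The chains of type VI collagen, which forms beaded filaments beside basement membranes, had small differences. Col6a1 had 13.6, 13.4 and 14.7 FPKM in the controls and 15.9, 14.5 and 15.6 FPKM in SETD4 OE (log2 fold change 0.13, SE 0.06, adjusted p = 0.103), with SETD4 OE replicate 2 inside the control range, and it was called higher under each of the 5 other scalings. Col6a2, its neighbour on chromosome 10, had 5.29, 5.08 and 5.20 FPKM in the controls and 6.22, 5.67 and 7.00 FPKM in SETD4 OE (log2 fold change 0.23, SE 0.08, adjusted p = 0.0335). That call was lost in 7 of the 15 alternatives, with adjusted p between 0.0524 and 0.0942, among them all 3 that left out a control library. Col6a3, the long alpha3 chain, had 1.81, 1.86 and 1.97 FPKM in the controls and 1.30, 1.17 and 1.30 FPKM in SETD4 OE (log2 fold change -0.35, SE 0.08, adjusted p = 0.00822). Col8a1, a short-chain network collagen of vessel walls and of Descemet's membrane, had 1.57, 1.16 and 1.43 FPKM in the controls and 3.27, 3.06 and 3.30 FPKM in SETD4 OE (log2 fold change 0.82, SE 0.09, adjusted p = 2.341e-04, or 1.31 with limma-voom). Its change was the largest of this class, and its partner Col8a2 was near 0 in both groups at 0.0868 and 0.208 FPKM.

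The other 31 members had means of 0.00425 to 0.965 FPKM and were not tested. In 17 of them the 3 SETD4 OE libraries were all above the 3 controls, in 1 they were all below, and in 13 the groups overlapped. Over the 17160 genes of the tables below the filter and within the same range of means, 14.4% lay wholly above and 3.71% wholly below. Those genes are of every biotype and were not matched to the 31 in level or length. Genes with very few reads can hardly separate the groups, so these shares are not a like-for-like measure for the 31. With no filter, 8 of these 31 were called higher and 0 lower, beside 12.9% and 13.1% of the 30911 genes then tested. Those 30911 include the genes above the filter, so these are not the shares among genes as low as the 31. At an unadjusted p under 0.05 the same limma fit had 1 lower. The 1 member below was Lama3, the alpha3 chain of epithelial laminin, at 0.278 ± 0.106 and 0.111 ± 0.0347 FPKM. Other laminin chains were low as well, Lama1 at 0.232 and 0.344 FPKM, Lama4 at 0.494 and 0.401 FPKM and Lamc3 at 0.143 and 0.300 FPKM, controls first. A laminin with chains alpha5, beta2 and gamma1 therefore had the most abundant chain of each kind in all 6 libraries.

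Summed per class, the levels show how far opposite moves balanced. The 44 collagen chains added up to 177, 199 and 194 FPKM in the controls and 247, 207 and 238 FPKM in SETD4 OE, all above the controls. Col9a3 carried that separation: without it the sums were 165, 185.5 and 182 FPKM and 201, 173.5 and 193 FPKM, which overlap, although with equal sums or upper quartile scaling they did not. The 11 laminin chains added up to 85.9, 88.0 and 89.2 FPKM in the controls and 80.2, 74.5 and 72.5 FPKM in SETD4 OE, all below. With equal sums or upper quartile scaling the laminin sums overlapped, and the difference of -11.98 FPKM became -4.42 or -3.48 FPKM. Basement membrane and multiplexin collagens summed to 96.9 ± 7.23 and 97.0 ± 6.49 FPKM, a difference within the spread of the libraries that grew to 9.20 FPKM with equal sums, and fibrillar collagens to 44.3 ± 2.66 and 50.3 ± 4.45 FPKM with overlap. FACIT collagens went from 25.1 ± 1.96 to 53.6 ± 8.08 FPKM, which was mostly Col9a3. Linkers, perlecan, agrin and fibronectin went from 83.0 ± 2.59 to 75.9 ± 3.24 FPKM, but this difference turned to a higher sum in SETD4 OE when libraries were scaled to equal sums or by the upper quartile.

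Within SETD4 OE the members also varied together between libraries. Replicate 1 had the highest value of its group for 23 of the 29 tested members, and replicate 2 the lowest for 22, including 18 of the 19 tested collagens. Over all 12994 tested genes SETD4 OE replicate 1 was the highest of its group for 3296, and replicate 2 was the lowest for 35.1%. Among the controls, replicate 1 was the lowest for 18 of the 29 members and for 42.6% of all tested genes. Setd4 was highest in SETD4 OE replicate 2 and lowest in replicate 1, and its part in this order was not tested.

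The sequence before the start of members that moved in opposite directions was read from RefSeq promoters on GRCm38.p6, which held 43 of the 60 members and 22 of the 29 tested. In the 250 bases before each start, 3 short motifs were searched on both strands, with no overlap between them: TATAAA (the TATA box), CCAAT (the CCAAT box) and GGGCGG (the GC box). Over all 32851 windows of this length 12.4% held TATAAA, 33.8% CCAAT and 32.7% GGGCGG. Of 48 member windows 5, 15 and 28 held them, in the same order. Of the 8 matched members called lower 7 held GGGCGG, 4 CCAAT and 0 TATAAA, and of the 9 matched members called higher 5, 2 and 1 did. These are counts of genes with the motif in any of their windows, so they are not on the scale of the shares of windows. In both directions some of the windows overlap annotated exons, often of the gene itself. Shown here are the windows of a laminin alpha chain and a fibrillar chain that rose and of 1 of each that fell, all free of annotated exons and picked after their values were seen. Each runs 5′ to 3′ along the strand of its gene and ends at the base before the RefSeq start, with motifs in capitals, where CCGCCC is GGGCGG read on the other strand.
Lama2 chr10:27616943-27617192 (-): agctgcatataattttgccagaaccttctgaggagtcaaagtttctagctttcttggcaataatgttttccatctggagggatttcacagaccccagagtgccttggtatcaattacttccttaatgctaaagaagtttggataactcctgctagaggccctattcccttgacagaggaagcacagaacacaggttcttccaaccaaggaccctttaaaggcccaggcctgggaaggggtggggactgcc
Lama5 chr2:180225860-180226109 (-): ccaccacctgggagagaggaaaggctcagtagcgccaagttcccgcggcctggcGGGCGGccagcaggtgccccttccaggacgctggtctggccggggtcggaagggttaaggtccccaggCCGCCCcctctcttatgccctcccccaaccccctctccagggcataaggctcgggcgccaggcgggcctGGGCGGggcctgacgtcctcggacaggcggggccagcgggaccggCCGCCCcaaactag
Col3a1 chr1:45311288-45311537 (+): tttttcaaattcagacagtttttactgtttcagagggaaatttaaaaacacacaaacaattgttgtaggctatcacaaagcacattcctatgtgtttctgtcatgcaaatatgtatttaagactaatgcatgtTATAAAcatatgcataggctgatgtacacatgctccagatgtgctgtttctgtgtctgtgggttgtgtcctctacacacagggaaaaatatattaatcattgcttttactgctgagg
Col5a3 chr9:20815068-20815317 (-): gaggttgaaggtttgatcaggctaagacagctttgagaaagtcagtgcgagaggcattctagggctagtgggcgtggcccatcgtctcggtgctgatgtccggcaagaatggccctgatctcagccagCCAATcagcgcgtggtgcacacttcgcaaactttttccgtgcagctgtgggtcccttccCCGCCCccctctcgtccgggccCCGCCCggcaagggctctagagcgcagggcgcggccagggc

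Lama2 and Col3a1 hold no GGGCGG in these windows, and Col3a1 is the only 1 of the 22 matched tested members with TATAAA. Like Lama2 and Col3a1, Col8a1 and Col27a1 rose from low levels, but their windows hold GGGCGG 4 times and 1 time. Col6a3, which was called lower, holds none, so the 4 windows shown do not stand for all members of either direction. Lama5 holds GGGCGG 4 times and Col5a3 holds it 2 times with 1 CCAAT. A match of letters does not show that a factor binds there, and neither does a missing match show the opposite.

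Genes for collagen processing and secretion, a list of 33 that hydroxylate, fold, export, trim and cross-link collagen, had 25 tested members. Of these 5 were called higher, 8 lower and 12 were not called, with a median log2 fold change of -0.13, beside the 26.0% higher and 33.9% lower of all tested genes. Without control replicate 1, 10 were called lower. Among genes of the list at 5 FPKM or more, Pcolce2, Pxdn and Plod1 rose. Pcolce2, an enhancer of C-propeptide removal, had 3.63, 4.90 and 4.62 FPKM in the controls and 13.1, 14.7 and 13.3 FPKM in SETD4 OE (log2 fold change 1.45, SE 0.10, adjusted p = 2.777e-05). Pxdn, the peroxidase that forms the sulfilimine cross-links of type IV collagen, had 14.0, 12.5 and 13.1 FPKM in the controls and 33.9, 31.5 and 30.8 FPKM in SETD4 OE (log2 fold change 1.22, SE 0.06, adjusted p = 9.218e-06). Plod1, a lysyl hydroxylase, went from 8.77 ± 0.507 to 17.0 ± 0.296 FPKM (log2 fold change 0.88). Adamts14, a protease that removes N-propeptides of fibrillar procollagens, had the widest gap of the list. It had 14.9, 16.4 and 16.4 FPKM in the controls and 1.24, 1.39 and 1.57 FPKM in SETD4 OE (log2 fold change -2.82, SE 0.07, adjusted p = 1.025e-06). Crtap, a part of the prolyl 3-hydroxylase complex, fell from 32.5 ± 1.17 to 16.0 ± 0.267 FPKM, Plod3, a lysyl hydroxylase and glycosyltransferase, from 28.4 ± 1.98 to 16.0 ± 1.54 FPKM, and Colgalt1, a collagen galactosyltransferase, from 29.5 ± 1.11 to 19.6 ± 1.49 FPKM. Serpinh1, the collagen chaperone HSP47, named here outside the rule for its role, was at 166 ± 19.95 and 147 ± 8.92 FPKM and was not called (log2 fold change -0.17, adjusted p = 0.183), though without control replicate 1 it was called lower (log2 fold change -0.26, adjusted p = 0.0263). P3h1, a prolyl 3-hydroxylase named because its call changed in the same way, was at 9.25 ± 1.0 and 7.96 ± 0.613 FPKM (adjusted p = 0.104, or 0.0185 without control replicate 1).

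**Figure D4:**
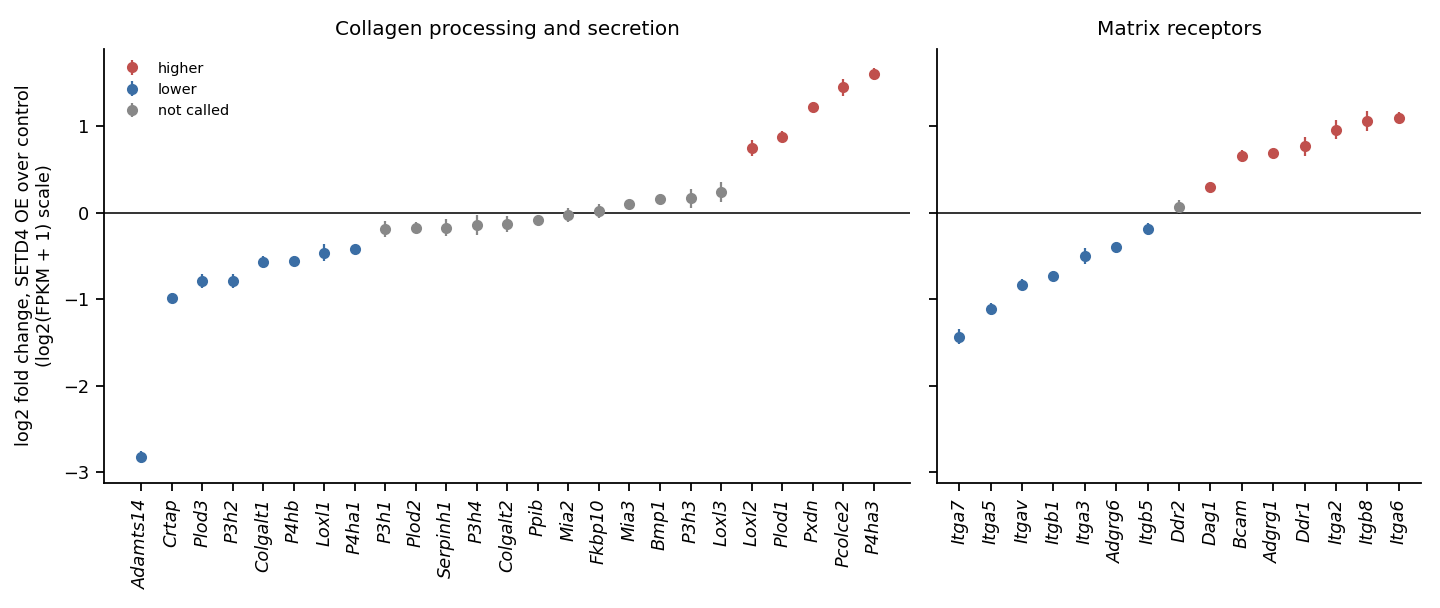
Log2 fold change of the 25 tested genes of collagen processing and the 15 tested matrix receptors (SETD4 OE over control, log2(FPKM + 1) scale, bars are 1 standard error, n = 3 per group), ordered by value. Adamts14 at -2.82 is far below the rest, and both lists hold called genes in each direction.

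Of 25 receptors of collagens, laminins and fibronectin, 15 were tested, with 7 called higher, 7 lower and 1 not called and a median log2 fold change of 0.07, against 60.0% of all tested genes called in either direction. Among receptors at 5 FPKM or more, the largest rises were in Itga6, Itgb8, Ddr1 and Adgrg1. Itga6, the alpha6 subunit of laminin-binding integrins and a marker of neural stem cells near vessels, had 16.1, 14.7 and 14.9 FPKM in the controls and 33.3, 35.8 and 32.5 FPKM in SETD4 OE (log2 fold change 1.10, SE 0.06, adjusted p = 1.184e-05). Itgb8, which pairs with alphav, went from 29.3 ± 5.21 to 61.8 ± 4.64 FPKM, Ddr1, a collagen receptor tyrosine kinase, from 94.3 ± 11.2 to 161 ± 15.5 FPKM, and Adgrg1, an adhesion receptor that binds type III collagen, from 67.2 ± 1.09 to 109 ± 3.85 FPKM. Among those that fell, Itga7, another alpha subunit of laminin integrins, had 28.7, 33.8 and 33.0 FPKM in the controls and 11.6, 10.0 and 11.97 FPKM in SETD4 OE (log2 fold change -1.43, SE 0.09, adjusted p = 1.711e-05). Itga5, the fibronectin-binding subunit, fell from 21.3 ± 1.30 to 9.33 ± 0.495 FPKM beside its ligand Fn1. Itgav fell from 31.7 ± 0.965 to 17.4 ± 0.836 FPKM, and Itgb1, the beta subunit that most of these receptors share, from 192 ± 4.81 to 115 ± 3.75 FPKM. Itgb5, 1 of the 7 called lower, was called in only 4 of the 15 alternatives.

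Collagens and laminins are also made by cells other than neural stem cells, and marker lists of those cells that hold no member gene were read beside the members. The 13 neural stem cell and astrocyte markers all passed the filter and summed to 3070 to 3307 FPKM in the controls and 4006 to 4179 FPKM in SETD4 OE, with 9 called higher and 3 lower. The rise of the sum was Gfap, which went from 321 ± 14.6 to 1388 ± 42.8 FPKM. Without Gfap the sums overlapped, at 2829 ± 132 and 2694 ± 47.1 FPKM, because rises and falls of other markers balanced. Aqp4 (18.6 ± 3.07 to 136 ± 7.93 FPKM), Slc1a2 (25.55 ± 2.63 to 89.2 ± 4.07 FPKM), Aldoc, S100b, Prom1, Sox9, Slc1a3 and Sox2 were also called higher. Nes (116.5 ± 16.0 to 42.7 ± 5.39 FPKM), Fabp7 and Vim were the 3 called lower. The 18 pericyte, smooth muscle and fibroblast markers together reached 41.5 to 47.3 FPKM and 30.5 to 35.4 FPKM, with 11 of them under the filter, 4 called higher and 2 lower. Acta2 made up most of that sum in the controls and fell from 30.9 ± 2.48 to 11.6 ± 1.62 FPKM. Without Acta2 the sum was higher in every SETD4 OE library, at 13.6 ± 0.541 and 22.0 ± 1.05 FPKM. Vtn, Pdgfrl, Rgs5 and Ogn rose, to 7.50 ± 1.21, 3.76 ± 0.236, 1.85 ± 0.0922 and 2.14 ± 0.0987 FPKM from 3.25 ± 0.346, 1.59 ± 0.476, 0.824 ± 0.0744 and 0.803 ± 0.236 FPKM. Rgs5 and Ogn passed the filter only through their SETD4 OE values, so their rise was partly fixed by the filter. Pdgfrb, Dcn and Lum, under the filter, were at 0.465, 0.279 and 0.452 FPKM in the controls and 1.16, 0.552 and 0.932 FPKM in SETD4 OE. Tagln, Kcnj8 and Abcc9, also under the filter, went down, from 0.491, 0.0611 and 0.0467 FPKM to 0.232, 0.0330 and 0.0345 FPKM. The remaining markers under the filter had higher means in SETD4 OE. Foxc1, called lower beside Acta2, fell from 3.54 ± 0.290 to 1.92 ± 0.252 FPKM (limma, adjusted p = 8.917e-04). Cnn1, at 1.27 and 0.882 FPKM, was not called. Of 14 endothelial markers 13 were under the filter, Cldn5, Tie1 and Sox17 were at 0 in every library, and the sum went from 4.78 to 5.08 FPKM in the controls to 2.38 to 2.57 FPKM in SETD4 OE. That fall was Flt1, at 3.43 ± 0.148 and 0.618 ± 0.0638 FPKM, without which the sum was 1.46 ± 0.0757 and 1.83 ± 0.0588 FPKM. The 10 choroid plexus markers summed to 254 to 284 FPKM and 636 to 725 FPKM. All 5 that were tested were called higher, with Ttr at 255 ± 17.0 and 660 ± 44.2 FPKM and Aqp1 at 1.01 ± 0.0815 and 5.81 ± 0.219 FPKM. Kl, a defining marker, was under the filter at 0.0545 ± 0.0124 and 0.188 ± 0.0561 FPKM. Kl, Kcne2, Prlr, Sostdc1 and F5, all under the filter, were higher in every SETD4 OE library than in any control. Microglial markers summed to 15.4 to 19.3 FPKM and 17.6 to 18.6 FPKM, oligodendrocyte lineage markers to 1158 to 1294 FPKM and 729 to 786 FPKM, and neuronal markers to 48.1 to 50.3 FPKM and 51.3 to 57.1 FPKM. The part of these cell types in the values of the members was not tested.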

How the data were processed

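Per the labels, total RNA of 6 samples was sequenced. The submitters' processing notes name HISAT2 2.0.5 and mm39; counting tool, annotation release and strand setting are not given in the sources used here. Per the file headers, the authors deposited FPKM values with gene coordinates and lengths, a table per group. FPKM times length was a whole multiple of 1 read for 100% of values within 0.05 reads, which gave the reads per gene used for depth and for limma-voom. Libraries of a group differed by more than counting noise, so none was a reread of the same library, while repeat preparations of a culture would not be seen this way.

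Groups came from the sample titles. Values were transformed to log2(FPKM + 1), filtered at a mean of 1 FPKM, and tested two-sided with limma 3.58.1 (R 4.3.3, mean-variance trend, no block) over all genes with Benjamini-Hochberg adjustment. Alternatives were 5 other scalings, including limma-voom, a pseudocount of 0.1, no filter, a filter at 5 FPKM, a replicate block, and each library left out. The procedure was also run on simulated reads. These had the same relative spread for every gene and far fewer changed genes than were called here, so the run does not measure the error rate in these data. Members and lists were chosen with earlier results of these data known. Every tested member is named, by library where called or at 5 FPKM or more. From the 2 lists, up to 4 called genes per direction with the largest change and a mean of at least 5 FPKM are named. Partner chains under the filter, Serpinh1, P3h1, sums with a gene left out, marker genes and 5 of the 9 chain ratios were picked after values were seen. Promoters are RefSeq's (GRCm38.p6), and exons are GENCODE's; coordinates of genes are the deposited ones. Figures used matplotlib 3.10.9.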

Additional observations from a re-analysis of the deposited data

How the results depend on the processing

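Over 15 alternatives, 21 of the 23 member calls held wherever the gene was tested, the exceptions being Col4a1 and Col6a2. Members called higher numbered 8 with a filter at 5 FPKM, which tested 20 members, and 11 to 14 with a library left out. Collagen processing genes called higher numbered 8 with equal sums, with limma-voom and with no filter, 9 with upper quartile scaling, 3 with the filter at 5 FPKM, and 5 with any library left out; those called lower were 8 to 10 with a library left out. The cause was not tested beyond the fewer genes that a filter leaves. Limma-voom called 4082 genes higher and 3872 lower, and upper quartile scaling moved the median log2 fold change of all genes from -0.06 to 0.07 and the calls from 26.0% higher and 33.9% lower to 34.0% and 25.0%.

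The log2 fold change of Col11a1 was 0.08 with equal sums, 0.03 with limma-voom, 0.02 with median of ratios, 0.06 with quantile and 0.09 with upper quartile scaling, and -0.09 to 0.00 with a library left out. That of Col12a1 was -0.01 with quantile scaling and -0.04 to 0.09 with a library left out. That of Serpinh1 was 0.05 with quantile scaling. The summed difference of linkers, perlecan, agrin and fibronectin was 0.188 FPKM with equal sums and 1.09 FPKM with upper quartile scaling, and that of basement membrane collagens ran from -3.74 to 3.61 FPKM with a library left out.

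Deviations of replicates of the same number from their group means had correlations of -0.0661, -0.229 and 0.0768, and not every sample correlated best with its own number. Deviations within groups of 3 depend on each other, so these values cannot tell whether the numbers pair the samples. With the replicate block, 11 members were called higher and 10 lower. Depth limits the 31 members under the filter most, several of which rest on under 100 reads in a group.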
